A study of Mus musculus with 24 samples.

Results

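The features described here were 855 assembled transcripts of mouse liver that carried the name of a long non-coding RNA (lncRNA) gene lying antisense to, inside or head to head with another gene. They were chosen by the Ensembl biotype of the gene (antisense, sense intronic, sense overlapping or bidirectional promoter lncRNA) and by a level of at least 0.3 FPKM, a read density scaled to transcript length and library size, in 1 or more of 4 groups. Of 69905 features in the tables, 3201 had such a biotype and 855 (26.7%) reached the level, in 786 genes. Antisense genes gave 808 of them, bidirectional promoter lncRNAs 35 and sense intronic genes 12, while none of the 26 sense overlapping features reached 0.3 FPKM. The 3 lncRNA names that the choice left out had no feature of these biotypes. Since the level was part of the choice, levels and differences of these features are given as descriptions, without any test.

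All mice were C57BL/6 wild-type animals, 18 weeks old by the labels, and had received a locked nucleic acid (LNA), a modified antisense oligonucleotide that lowers its target RNA, for 12 weeks. On both points the study's methods differ from the labels, with older mice and more weeks of injection. The methods name the strain as C57BL/6N. The groups were Mafg LNA on a high-fat diet (HFD), Scr LNA on HFD, LincIRS2 LNA on the control diet labelled NCD, and Scr LNA on NCD, with 4 livers each. Scr is a scrambled control, Mafg encodes a small MAF transcription factor, and LincIRS2 (4833411C07Rik) is a lncRNA. HFD held 54% of energy as fat, 22% as carbohydrate and 24% as protein, and NCD held 11%, 62% and 27%. By the study's methods mice were given saline or insulin at random before tissue was taken, and the labels do not give the injection of each liver. The tables hold 1 value per group, in which the authors pooled its 4 livers, so no spread between livers could be computed and no test was run.

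Antisense lncRNAs are transcribed from the strand opposite to another gene and can share exonic sequence with it. Some act in cis on the gene they overlap, the classic case being Airn, which silences the paternal copy of Igf2r, the gene of a mannose 6-phosphate and IGF2 receptor. Sense intronic lncRNAs lie within an intron of a host gene on the same strand, and bidirectional promoter lncRNAs start next to the start of a coding gene and run the other way. Only strand-specific reads can tell an antisense RNA from its partner where exons overlap.

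The groups differed by diet and by the oligonucleotide given, whose sequences are shown since each acts by pairing with its target. They are written 5′ to 3′ in lower case, as the study lists them.
Mafg LNA: gtcttggactttacta
LincIRS2 LNA: ctcgattaacctgata
Scr LNA: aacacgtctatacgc
The full complement of Mafg LNA was found in 4 of 5 annotated Mafg transcripts and that of LincIRS2 LNA in 2 of 2 transcripts of 4833411C07Rik. Among 791 reference transcripts of the chosen features no full complement of any of the 3 was present. The longest complementary run was 11 bases for Mafg LNA, in 4 transcripts, and 9 bases for LincIRS2 LNA and Scr LNA, in 9 and 5 transcripts.

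Promoters are shown for the lncRNA genes with the largest differences that RefSeq holds (GRCm38.p6, 250 bases before to 50 bases after the start). Capitals mark TGCTGA (part of a MAF recognition element), TGACNNNGC, TGAGTCA (an AP-1 site) and TATAAA. Each was searched on both strands, and neighbouring matches may overlap.
Gm16984, chr13:34963700-34963999, plus strand: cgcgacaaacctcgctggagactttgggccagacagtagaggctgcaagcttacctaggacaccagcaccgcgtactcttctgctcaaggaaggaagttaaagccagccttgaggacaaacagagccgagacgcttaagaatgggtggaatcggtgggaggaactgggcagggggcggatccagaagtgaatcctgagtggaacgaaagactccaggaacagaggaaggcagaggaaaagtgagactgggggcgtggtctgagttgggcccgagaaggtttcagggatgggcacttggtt
Gm32872, chr10:68528750-68529049, plus strand: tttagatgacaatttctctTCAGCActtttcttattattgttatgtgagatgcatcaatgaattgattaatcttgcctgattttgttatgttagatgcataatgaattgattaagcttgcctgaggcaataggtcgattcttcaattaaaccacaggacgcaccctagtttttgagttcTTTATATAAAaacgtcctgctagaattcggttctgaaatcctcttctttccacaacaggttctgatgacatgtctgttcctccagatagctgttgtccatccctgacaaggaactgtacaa
1500026H17Rik, chr10:89686113-89686412, plus strand: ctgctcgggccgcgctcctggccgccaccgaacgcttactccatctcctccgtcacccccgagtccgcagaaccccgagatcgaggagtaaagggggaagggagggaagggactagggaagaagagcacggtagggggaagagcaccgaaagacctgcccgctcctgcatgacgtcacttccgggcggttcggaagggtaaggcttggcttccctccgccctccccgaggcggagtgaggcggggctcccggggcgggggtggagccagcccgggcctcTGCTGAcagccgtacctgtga
Airn, chr17:12741061-12741360, plus strand: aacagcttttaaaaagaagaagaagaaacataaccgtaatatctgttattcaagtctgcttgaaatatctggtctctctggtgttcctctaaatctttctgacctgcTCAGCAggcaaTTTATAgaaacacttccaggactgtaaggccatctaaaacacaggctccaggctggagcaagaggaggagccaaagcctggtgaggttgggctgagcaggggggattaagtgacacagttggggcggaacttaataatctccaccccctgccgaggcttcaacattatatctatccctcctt
Gm16984 had no match, Gm32872 had TGCTGA and an overlapping pair of TATAAA matches, 1500026H17Rik had TGCTGA, and Airn had TGCTGA and TATAAA. The reference transcript of the Gm32872 features starts at base 68530094, downstream of the sequence shown. The larger Gm32872 differences and those of Airn belong to features inferred on the strand opposite to the gene. For these the sequence shown is not that of the feature's own start. Of 786 lncRNA genes, 253 matched a RefSeq symbol, with 316 promoters. TGCTGA was in 19.0% of these 316 promoters and in 19.5% of all 32851, TGACNNNGC in 12.0% and 12.4%, and TGAGTCA in 6.65% and 5.20%. TATAAA was in 7.28% of the 316 and 13.6% of all. A match describes the letters and not a bound site.

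The whole series sets a frame for these values. LincIRS2 had 1 feature, at 0.345 FPKM in LincIRS2 LNA NCD against 0.558 FPKM in Scr LNA NCD, and no feature named Mafg was among those analysed here. Of 10 hepatocyte markers 9 reached 0.3 FPKM, although Alb was listed at 0 in 3 groups. The summed level of 13 Kupffer cell and macrophage markers, 12 of which reached 0.3 FPKM, was 57.7 FPKM in Mafg LNA HFD against 39.5 in Scr LNA HFD, then 35.5 in LincIRS2 LNA NCD against 63.9 in Scr LNA NCD. That of 6 neutrophil markers was 5.81, 1.62, 1.53 and 16.3 FPKM in the same order, and that of 6 erythroid markers 901, 1950, 2032 and 2045 FPKM. Their part in the differences below was not tested. In whole liver, fewer cells of a type and less RNA per cell cannot be told apart.

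The tables give no strand, so each feature's strand was read off the way feature numbers run along a chromosome. Among 20164 features whose locus was exactly 1 reference transcript, the inferred strand was that of the gene for 95.4%. On this inference 727 of the 855 features lay on the strand of their own lncRNA gene and 128 on the opposite strand. Antisense features were on their own strand in 699 of 808 cases (86.5%), against 3952 of 13564 protein-coding features (29.1%) and 272 of 546 lincRNA features (49.8%), all of at least 0.3 FPKM. Actb, the gene of beta-actin, shows the pattern: its opposite-strand feature had 64.0 FPKM in Mafg LNA HFD against 57.2 in Scr LNA HFD, then 55.1 in LincIRS2 LNA NCD against 52.7 in Scr LNA NCD, while its own-strand feature stayed under 0.1 FPKM. For a feature named after an antisense gene, RNA of that gene and RNA of the overlapping coding gene cannot be told apart in these tables.

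The share of lncRNA features that reached 0.3 FPKM differed with their overlap of coding genes. Of own-strand features whose reference transcript shared exonic bases with a protein-coding gene, 461 of 1358 (33.9%) reached it, of those that lay in introns only 242 of 1340 (18.1%), and of those without overlap 24 of 351 (6.84%). Of the features inferred to be opposite to their lncRNA gene 128 of 152 (84.2%) reached it, among them 30 of 32 with exon overlap, 75 of 81 in introns and 23 of 39 without overlap. An own-strand feature can come from the annotation alone, but an opposite-strand feature has no reference transcript of its gene on that strand. Such features arise where reads were assembled. Their share was thus largely set beforehand and is not comparable with that of own-strand features. Reference transcripts with 1 exon and with several exons reached it about as often, in 23.9% and 27.1% of cases. Among the biotypes, 0 of 26 sense overlapping and 12 of 308 sense intronic features (3.90%) reached it, against 808 of 2704 antisense features (29.9%).

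**Figure D1:**
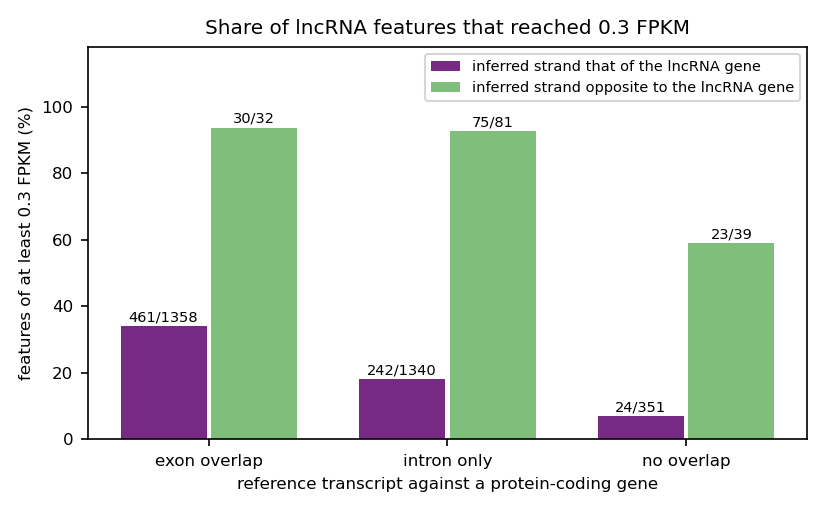
The bars give the percentage of lncRNA features that reached 0.3 FPKM in 1 or more of the 4 groups, by the position of the reference transcript against protein-coding genes and by inferred strand, with the counts above. Own-strand features were at 33.9% with exon overlap and at 6.84% without overlap, and opposite-strand features were at 59.0% or more in each class. Opposite-strand features arise where reads were assembled, so the bars of the strands are not comparable.

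Most of the 855 features were low. Their mean FPKM over the 4 groups had a median of 0.699, with quartiles of 0.369 and 1.59, against a median of 0.971 for protein-coding and 0.545 for lincRNA features. The highest group value was under 1 FPKM for 477 (55.8%), between 1 and 3 FPKM for 249 (29.1%) and 3 FPKM or more for 129 (15.1%). All 4 groups were at 0.3 FPKM or more for 602 features (70.4%) and only 1 group for 104. Of the 47 features with a group at 10 FPKM or more, 46 were on their own strand and 38 shared exonic bases with a coding gene. Among own-strand features with exon overlap, the median of the mean FPKM was 1.88 for the 128 with at least 50% of their exonic bases inside coding exons, 0.762 for the 256 with 10 to 50%, and 0.635 for the 77 with less.

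The 12 highest features each overlapped a coding gene on the other strand, all but 4930570N18Rik in exons. Gm10680, on chr9:46242621-46243529 of GRCm38, minus strand, has 90.03% of its exonic bases inside exons of Apoa4, the gene of a lipoprotein component. It was at 320.5 FPKM in Mafg LNA HFD against 212 in Scr LNA HFD, then at 159 in LincIRS2 LNA NCD against 81.8 in Scr LNA NCD, so that each step in this order was lower. Sardhos, over the gene of sarcosine dehydrogenase, had 174 FPKM in Mafg LNA HFD against 218 in Scr LNA HFD, then 164 in LincIRS2 LNA NCD against 133 in Scr LNA NCD. Its highest group was Scr LNA HFD. Gm45507, over the mitophagy receptor gene Bnip3, was between 128 and 152 FPKM, Gm16567, over the complement gene C1s1, between 112 and 133, and Gm37401, over Rhoa, which encodes a small GTPase, between 94.7 and 117. For these 3 the groups lay close together.

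B430119L08Rik, over an alpha-1-antitrypsin gene (Serpina1c), stood at 77.2 FPKM in Mafg LNA HFD against 142 in Scr LNA HFD, then at 139 in LincIRS2 LNA NCD against 137 in Scr LNA NCD. Mafg LNA HFD was the low group here, as it was for Gm48702 over Ttc36 (57.5 FPKM, against 103 in Scr LNA HFD) and for 4930570N18Rik in an intron of Hsd11b1, which encodes the enzyme that regenerates active glucocorticoid (45.7 FPKM, against 75.5 in Scr LNA HFD). Frmd8os was lowest in LincIRS2 LNA NCD, at 48.8 FPKM against 71.6 in Scr LNA NCD. Gm42413, over Qdpr, which recycles the cofactor tetrahydrobiopterin, was between 58.8 and 67.8 FPKM. Gm47544, whose exons lie wholly inside those of the triglyceride regulator Apoa5, was between 44.1 and 63.1 FPKM. Together the 12 held 48.3% of the FPKM sum over the 855 features in Mafg LNA HFD against 49.9% in Scr LNA HFD, then 45.4% in LincIRS2 LNA NCD against 43.9% in Scr LNA NCD.

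**Figure D2:**
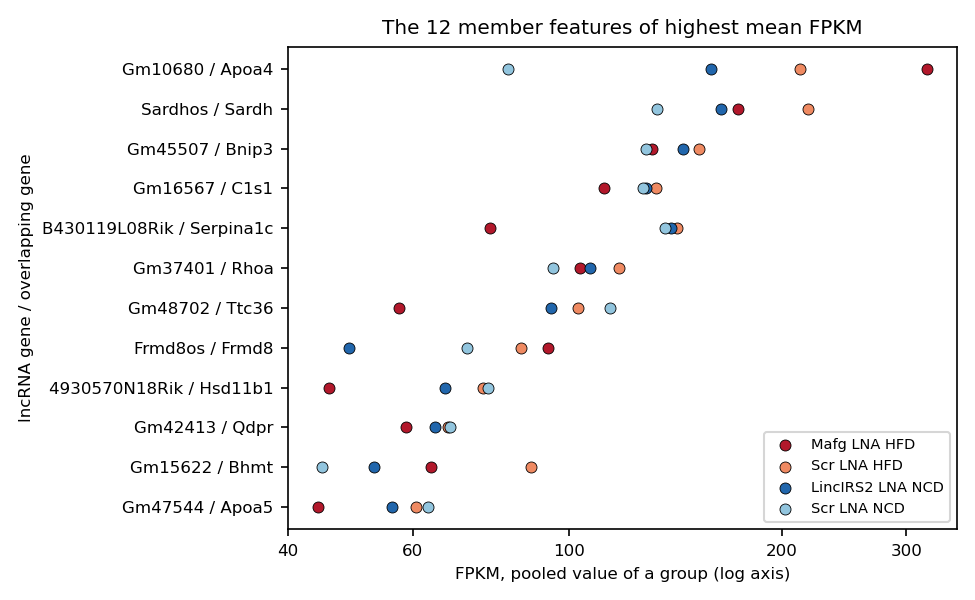
The pooled FPKM of each group (log axis) is given for the 12 features of highest mean level, named with the coding gene they overlap. Gm10680 spans 81.8 to 320.5 FPKM, while Gm16567 spans 112 to 133 FPKM.

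The level of the overlapping coding gene was read beside each lncRNA feature. For 461 own-strand features with exon overlap, the coding gene had no feature in 26 cases, had its best feature under 0.3 FPKM in 210 and reached 0.3 FPKM in 225. In these 225 pairs the lncRNA feature was the higher one in 86 (38.2%), and its level was 57.3% of that of the coding gene's best feature in the median pair. In 153 own-strand pairs in introns it was the higher one in 38 (24.8%). The coding gene's best feature was itself inferred to be opposite to that gene in 127 of the 225 pairs (56.4%) and in 93 of the 153 (60.8%). Where the genes lie on opposite strands, both features of such a pair are on the same inferred strand. These pairs therefore do not set sense against antisense RNA. The pairs whose coding gene stayed under 0.3 FPKM favour the lncRNA by the choice of features and are not counted here. Among them, Gm42413 was at 58.8 FPKM or more in every group, while Qdpr had under 0.05 FPKM. Since 98.2% of the exonic bases of Gm42413 lie inside Qdpr exons, its value may hold RNA of Qdpr, and the RNA of each gene cannot be told apart. Igf1os, whose reference transcript lies in introns and which was picked after its values were seen, was between 16.8 and 20.6 FPKM. The growth factor gene Igf1 was between 0.200 and 0.299 FPKM, in a feature inferred on its own strand. Here too the RNA of each gene cannot be told apart, so these values do not rank Igf1os above Igf1. Across the 225 pairs, the Spearman correlation of the mean levels was 0.04, and that of the log2 differences was 0.34 for HFD over NCD, 0.38 for Mafg LNA and 0.25 for LincIRS2 LNA. For 153 own-strand pairs in introns these were 0.12, 0.32 and -0.01. The pairs share libraries and scaling, and these coefficients are descriptions across features.

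In several pairs the values of both partners took a like course over the groups. Apoa4 had 60.3 FPKM in Mafg LNA HFD against 39.1 in Scr LNA HFD, then 28.8 in LincIRS2 LNA NCD against 14.2 in Scr LNA NCD, which is the order seen for Gm10680. Serpina1c had 334.5 FPKM in Mafg LNA HFD against 629 in Scr LNA HFD, a log2 difference of -0.91, where B430119L08Rik had -0.88. Hsd11b1 had 113 FPKM in Mafg LNA HFD against 194 in Scr LNA HFD (-0.79), where 4930570N18Rik had -0.72. Bhmt, which remethylates homocysteine with betaine, had 11.6 FPKM in Scr LNA HFD against 3.34 in Scr LNA NCD (1.76), and Gm15622 over it had 88.2 against 44.6 (0.98). Prox1, a transcription factor of hepatocyte identity, had 15.2 FPKM in Scr LNA HFD against 19.0 in Scr LNA NCD (-0.32), and Prox1os 2.07 against 3.67 (-0.80). Not all pairs did so. C1s1 had 0.00908 FPKM in Scr LNA HFD against 2.83 in Scr LNA NCD (-4.75), where Gm16567 over it had 132.5 against 127 (0.06). The Hsd11b1 and Prox1 features read here were inferred to be opposite to their genes, which is the strand of the lncRNA feature. All pairs of this paragraph were picked after their values were seen.

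**Figure D3:**
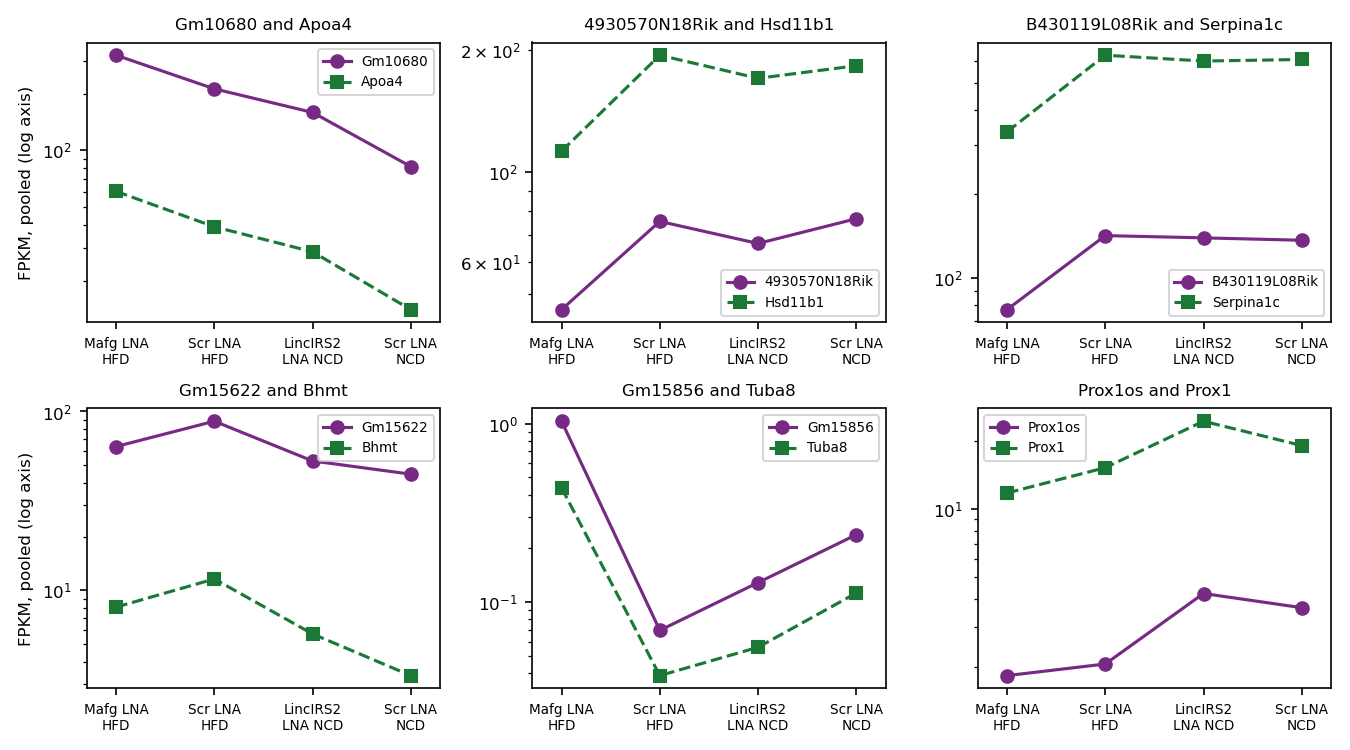
Pooled FPKM (log axis) of 6 lncRNA features (circles) and of the best feature of the overlapping coding gene (squares) in the 4 groups, with lines to guide the eye. Both partners of Gm10680 and Apoa4 are lowest in Scr LNA NCD, and both of Gm15856 and Tuba8 are highest in Mafg LNA HFD.

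To describe the effect of diet, Scr LNA HFD was set over Scr LNA NCD. Differences are log2 ratios of (FPKM + 0.1), and a feature counts as changed when they reach 2-fold and neither group is listed at 0. Of 852 features compared, 20 (2.35%) were at least 2-fold higher and 21 (2.46%) at least 2-fold lower, against 4.01% higher and 3.41% lower of all 20898 features of at least 0.3 FPKM. Protein-coding features were near these shares, with 2.57% higher and 2.42% lower, and lincRNA features had 7.24% and 3.34%. The median log2 difference was -0.02, and 0.01 over all features. Most counted features were low, since a group at 1 FPKM or more was found for 4 of the 20 and for 3 of the 21. By level, 3.37% of those under 1 FPKM were higher and 3.79% lower, against 5.10% and 4.38% of all features of that level. Features at 3 FPKM or more were higher in 1.55% and lower in 0.775%, against 3.05% and 2.13%.

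Pard3bos3, in an intron of the polarity gene Pard3b, had 1.44 FPKM in Scr LNA HFD against 0.441 in Scr LNA NCD, a log2 difference of 1.51. Gm10680 followed with 1.37 (212 against 81.8 FPKM) and 4930480G23Rik with 1.30 (1.64 against 0.606 FPKM). The features of Pard3bos3 and 4930480G23Rik were inferred on the strand opposite to their lncRNA genes. Gm45812, which overlaps exons of the kinesin gene Kifc3, was the lowest by difference, with 0.342 FPKM in Scr LNA HFD against 3.07 in Scr LNA NCD (-2.84). Mafg LNA HFD had 2.40 FPKM of it, while LincIRS2 LNA NCD had 2.22 FPKM, so Scr LNA HFD alone was low. The 5 opposite-strand features named Kifc3 were between 0.28 and 0.60 FPKM in all groups and did not share this pattern. Gm16984, over the fatty acid oxidation gene Eci2, had 0.539 FPKM in Scr LNA HFD against 2.26 in Scr LNA NCD (-1.89), and the opposite-strand feature of Gm32872 had 0.647 against 1.64 (-1.22). Gm16984 was low in both HFD groups, since Mafg LNA HFD had 0.254 FPKM, while LincIRS2 LNA NCD had 1.63 FPKM.

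Mafg LNA HFD was set over Scr LNA HFD to describe Mafg LNA under obesogenic feeding. Of 849 features compared, 26 (3.06%) were at least 2-fold higher and 16 (1.88%) lower, against 7.38% higher and 4.03% lower of all 20938 features. Protein-coding features had 4.52% higher and 3.28% lower, and lincRNA features 8.32% and 4.81%. Of the features under 1 FPKM 4.025% were higher and 2.33% lower, against 10.7% and 4.83% of all features of that level. The median log2 difference was -0.02, and -0.01 over all features. Gm15856, over the alpha-tubulin gene Tuba8, had 1.03 FPKM in Mafg LNA HFD against 0.0695 in Scr LNA HFD (2.74), and Tuba8 itself 0.436 against 0.0388. Both were highest in Mafg LNA HFD of all groups. Gm45812 was next (2.40 against 0.342 FPKM, 2.50). As this comparison and the diet comparison share Scr LNA HFD, their values for Gm45812 and Gm32872 are not independent. The features of Gm32872, over Cabcoco1, were at 2.40 against 0.647 FPKM on the opposite strand (1.74) and at 1.11 against 0.462 FPKM on its own strand (1.10). Gm17196, over Ccdc162, had 1.13 against 0.319 FPKM (1.55), and Gm29237, over the spectrin gene Sptbn1, 1.57 against 0.573 FPKM (1.31). Gm16675, 217 bases from the interferon regulatory factor gene Irf2, had 2.34 against 1.03 FPKM (1.11), in a feature opposite to its gene.

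Among the lower ones, 1500026H17Rik, a bidirectional promoter lncRNA 86 bases from Scyl2, had 0.237 FPKM in Mafg LNA HFD against 1.40 in Scr LNA HFD (-2.15). Gm47373, in an intron of the mitochondrial peptidase gene Immp2l, had 2.42 FPKM against 7.13 (-1.52), while Immp2l had 7.92 against 11.9 FPKM. AC158954.1 over the carboxypeptidase gene Cpq (0.910 against 2.41 FPKM, -1.31), Gm17035 over Ndrg1 (0.569 against 1.44, -1.20) and Gm13449 over the complement C5 gene Hc (1.20 against 2.68, -1.10) were lower too. Cpq itself had 4.34 against 12.0 FPKM, and Hc had 0.306 against 1.36 FPKM. Features at 3 FPKM or more had a median of -0.14, near the -0.12 of all features of that level. The opposite-strand features had a median of 0.15 and the own-strand features one of -0.04. Protein-coding features had medians of -0.01 and -0.09 in the same order. Opposite-strand features were lower in level, with a median mean FPKM of 0.494 against 0.743. All features under 1 FPKM had a median difference of 0.09.

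LincIRS2 LNA NCD was set over Scr LNA NCD. Of 852 features compared, 14 (1.64%) were at least 2-fold higher and 12 (1.41%) lower, against 2.83% higher and 2.66% lower of all 20873 features. Protein-coding features had 1.71% higher and 1.92% lower, and lincRNA features 2.77% and 2.03%. The median log2 difference was 0.02, as over all features. Only 1 of the higher features had a group at 1 FPKM, Gm15318, which overlaps the trefoil factor gene Tff1 outside its exons, with 1.53 FPKM in LincIRS2 LNA NCD against 0.662 in Scr LNA NCD (1.10). Gm10680 stayed just under 2-fold, with 159 against 81.8 FPKM (0.96), and Apoa4 had 28.8 against 14.2 (1.02). 1500026H17Rik had 0.451 against 1.44 FPKM (-1.49) and a feature named Airn 0.372 against 1.13 FPKM (-1.39). Gm28913, over the kinase gene Ikbke, had 0.399 against 1.14 FPKM (-1.31), and Gm17041, whose exons lie wholly inside Cish, a STAT5-induced inhibitor of cytokine signalling, had 2.27 against 4.82 FPKM (-1.05). As Gm17041 had 2.65 FPKM in Mafg LNA HFD and 2.68 in Scr LNA HFD, Scr LNA NCD alone was high.

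**Figure D4:**
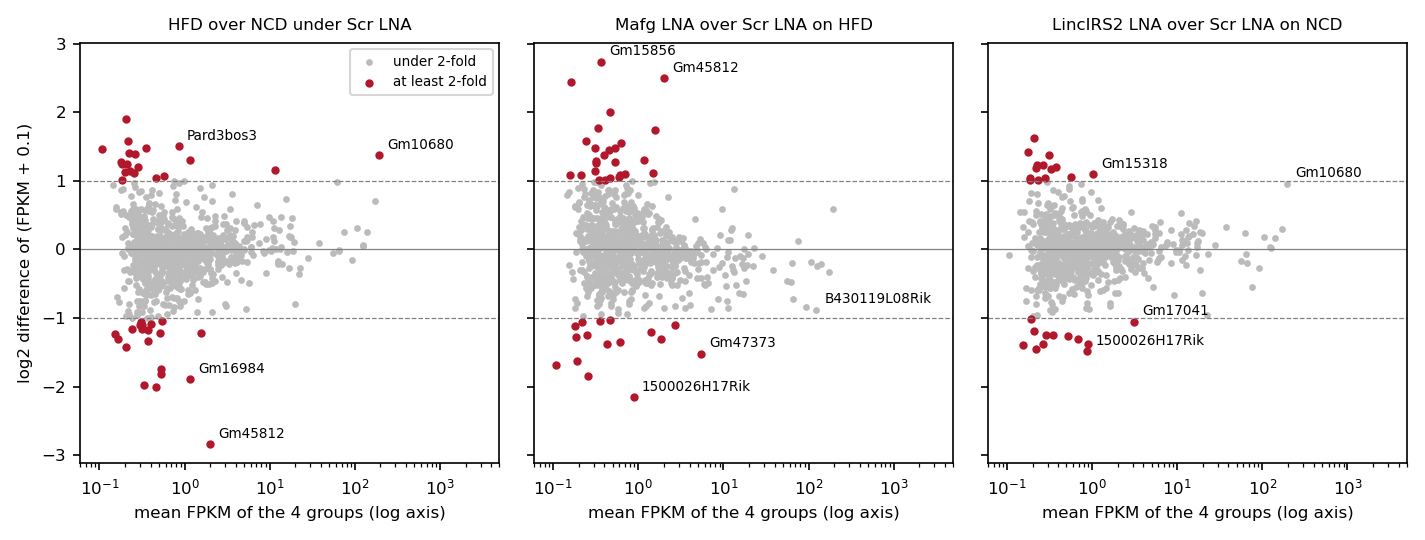
Each point is 1 feature, by its mean FPKM (log axis) and its log2 difference of (FPKM + 0.1) in the comparison named above each panel, with dashed lines at 2-fold. Features of at least 2-fold lie mainly at low levels, with Gm10680 at 1.37 for diet among those of higher level.

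The Mafg LNA and LincIRS2 LNA comparisons share no group. Over 849 features their log2 differences had a Spearman correlation of -0.06, and -0.09 over 20712 features of all kinds. 1500026H17Rik was the 1 feature at least 2-fold lower in both, which is 1 of 16 lower with Mafg LNA and 1 of 12 lower with LincIRS2 LNA. It is 0.118% of 849 features, against 47 of all 20712 (0.227%). 1500026H17Rik was at 1.40 and 1.44 FPKM in the Scr LNA groups on HFD and NCD, a log2 difference of -0.04 for HFD over NCD. None of the 849 was at least 2-fold higher in both, against 84 of all 20712 (0.406%). In all, 713 of 849 features (84.0%) without a group at 0 stayed within a 2-fold span over the 4 groups, as did 76.4% of all 20712 features. Mafg LNA HFD was the group of lowest value for 291 features (34.0%) and of highest value for 243 (28.4%), against 31.7% and 32.7% of all features.

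Several named antisense lncRNAs had more than 1 feature. Hnf4aos, antisense to the gene of the hepatocyte nuclear factor HNF4A, had 5, all inferred on the strand of Hnf4a. The Hnf4aos reference transcript shares no exonic bases with Hnf4a, but the exons of the features themselves were not read. RNA of Hnf4a and of Hnf4aos cannot be told apart in these 5 features. They were between 0.993 and 2.67 FPKM in Scr LNA HFD against 0.528 and 1.65 in Scr LNA NCD, with log2 differences of 0.41 to 0.94. All 5 were thus higher on HFD, none by 2-fold. With Mafg LNA their differences were 0.01 to 0.97, the largest of which went with 2.54 FPKM in Mafg LNA HFD against 1.25 in Scr LNA HFD, and with LincIRS2 LNA they were -0.32 to 0.24. The best feature of Hnf4a itself had 7.43 FPKM in Scr LNA HFD against 7.61 in Scr LNA NCD. Another Hnf4a feature had 0.892 FPKM in Scr LNA HFD against 0.197 in Scr LNA NCD (1.74), so the features of Hnf4a did not agree. The 4 Airn features, all on the strand of Igf2r, did not agree in direction, with -0.64 to 0.42 for diet, -0.53 to 0.65 for Mafg LNA and -1.39 to 0.60 for LincIRS2 LNA, and the own-strand Airn feature was listed at 0 in all groups. Igf2r had 2.90 FPKM in Scr LNA HFD against 2.33 in Scr LNA NCD. Over all 38 genes with several features, the sign was shared for 19 genes in the diet comparison, for 22 under Mafg LNA and for 17 under LincIRS2 LNA. A gene with a feature listed at 0 counts here as having no single sign, which is the case for Gm26740. This gene, near the NKG2D ligand gene Raet1e, had 10 features, all on the opposite strand, with mean levels of 0.19 to 0.98 FPKM. Those compared had differences of -1.98 to -0.31 for HFD over NCD and of 0.33 to 1.78 for Mafg LNA. Both ranges rest on Scr LNA HFD and are not independent. With LincIRS2 LNA the differences were -1.25 to 0.82. Features of 1 gene are not replicates.

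**Figure D5:**
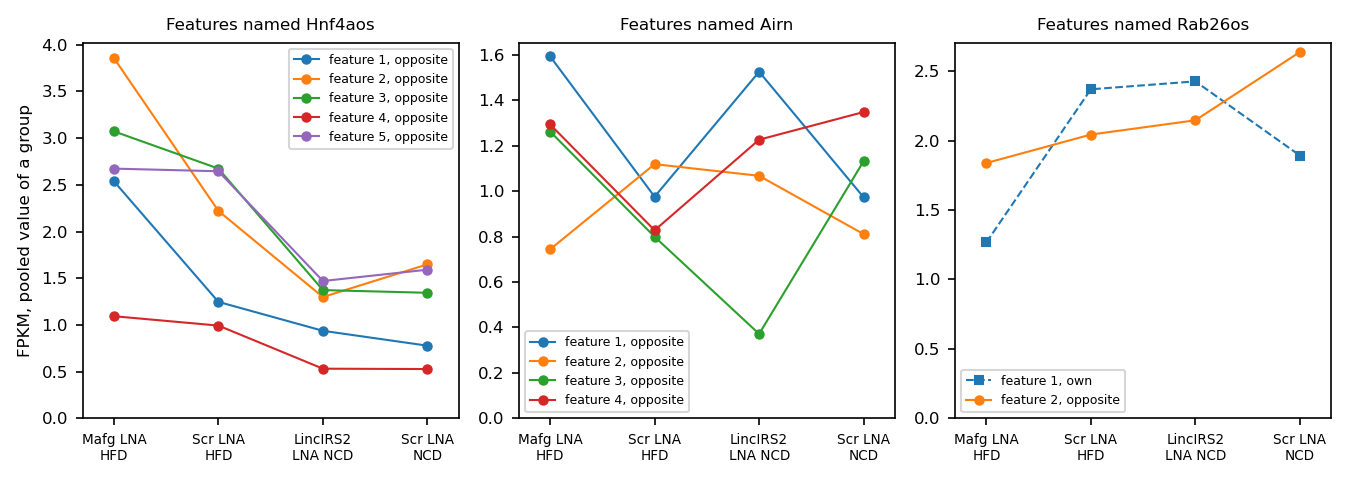
Pooled FPKM of each feature of Hnf4aos, Airn and Rab26os in the 4 groups (circles for features opposite to the gene, squares for its own strand). All 5 Hnf4aos features are higher in Scr LNA HFD than in Scr LNA NCD, while the 4 Airn features take different orders.

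Of 40 named antisense or overlapping lncRNAs listed for this tissue, 8 genes gave 16 features of at least 0.3 FPKM. The median log2 difference of these 16 was 0.26 for HFD over NCD, 0.16 for Mafg LNA and 0.02 for LincIRS2 LNA, against 0.01, -0.01 and 0.02 over all features, and 1 of 16 passed 2-fold in any comparison, an Airn feature. The 5 Hnf4aos features, all of 1 locus and all higher on HFD, are among the 16 and weigh on these medians. Rab26os had 1.27 FPKM in Mafg LNA HFD against 2.37 in Scr LNA HFD on its own strand (-0.85) and 1.84 against 2.04 FPKM on the opposite strand (-0.15). 0610031O16Rik, in the Adh7 region, had 1.22 against 0.588 FPKM (0.94), and Ctcflos 0.329 against 0.140 (0.84). Hnf1aos1 was between 0.471 and 0.645 FPKM in the 4 groups and Gm14097 between 0.732 and 0.846.

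Lists of coding genes give the neighbourhood of the rest. Genes of liver transcription factors overlapped or adjoined (within 5000 bases) 12 features of 7 lncRNA genes, among them the 5 of Hnf4aos. Their median was 0.22 for diet, with none past 2-fold. As the Hnf4aos features come from 1 locus, this median does not describe separate genes. Glucose and insulin genes had 8 such features. Gm11513, at the pyruvate dehydrogenase kinase gene Pdk2, had 0.580 FPKM in Scr LNA HFD against 0.382 in Scr LNA NCD (0.50). Lipid and cholesterol genes had 4, with Gm10680 at Apoa4 as the 1 past 2-fold. Gm48342, over the cholesterol synthesis gene Hmgcs1, had 20.98 FPKM in Scr LNA HFD against 12.6 in Scr LNA NCD (0.73). Plasma protein and acute phase genes had 3, among them Gm45774 at the metallothionein gene Mt2, with 0.467 FPKM in Mafg LNA HFD against 0.991 in Scr LNA HFD (-0.94) and 1.00 in LincIRS2 LNA NCD against 0.473 in Scr LNA NCD (0.95). Genes of bile acid, xenobiotic, immune and cell cycle lists had 1 each and clock genes none. The feature beside the bile salt export pump gene Abcb11, Gm13613, had 1.95 FPKM in Scr LNA HFD against 2.52 in Scr LNA NCD (-0.35).

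A few features sat at the edges of the choice. Just inside the limit were Gm48420, AC164302.1 and Gm44649, whose highest group was at 0.3, 0.301 and 0.306 FPKM, and just outside Gm42868, Gm43732 and Gm16121, at 0.299, 0.298 and 0.298 FPKM. In 6 features a group was listed at 0, which can be a failed estimate, and no fold is given for it. Fbxl12os, in a feature opposite to its gene, was the 1 of these that reached 1 FPKM. It had 1.53 FPKM in Mafg LNA HFD and a listing at 0 in the other groups. Gm47371, Gm48439 and Gm26827 were listed at 0 in Mafg LNA HFD, against 0.831, 0.604 and 0.709 FPKM in Scr LNA HFD.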

How the data were processed

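Total RNA of 24 livers in 6 groups of 4 was depleted of rRNA and sequenced with a strand-specific kit. Per the submitters' notes and the study's methods, the authors used flexbar for trimming, Bowtie2 2.2.9 to discard rRNA reads, STAR 2.6.0c for alignment (GRCm38, mm10), Cufflinks 2.2.1 for transcript assembly and Cuffdiff for group comparisons. The authors' FPKM values are deposited as 1 pooled figure per group of 4 livers. FPKM holds no counts, so depth is unknown and no level has an interval or detection floor. The tables' other columns hold the authors' own fold changes, test statistics, p and q values, which were not used. Not analysed here were 8 livers, of Mafg LNA on NCD and of LincIRS2 LNA on HFD.

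The 3 tables were joined on the feature number. Values of the groups found in 2 tables were equal for all 69905 features. Differences were log2 ratios of (FPKM + 0.1), with 2-fold as the limit, checked on artificial data with known changes. No test was run, as each group has 1 value. A feature's strand was inferred within a chromosome from a step back of over 1000 bases in locus start between successive feature numbers. Overlap with protein-coding exons came from GENCODE M21 (GRCm38), which held the reference transcripts of 853 of 855 features (the others were taken as 1 exon over their span), and the best feature of the overlapping gene is the one of highest mean FPKM. Named were, per comparison, up to 8 of largest rise and 8 of largest fall past 2-fold with a compared group at 1 FPKM or more, the 12 highest by mean, those listed at 0 with another group at 1 FPKM or more, the 3 nearest to 0.3 FPKM on either side, the listed lncRNAs, and at most 4 per list of coding genes (10 lists in all). A lncRNA that the rule names and its coding gene are not reported here. The other features listed at 0, Gm26740, Igf1os and the coding genes were named after their values were seen. The features and lists were chosen with earlier results of these data known. Alternatives were other pseudocounts, other minima, 1 feature per gene, centring and either strand alone. Their values were set against a 95% interval over features (Wilson for shares, binomial for medians), which says nothing of the spread between livers. Analyses used Python 3.11.15, pandas 2.3.3, NumPy 2.4.6 and SciPy 1.17.1.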

Additional observations from a re-analysis of the deposited data

How the results depend on the processing

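No paired analysis was possible because each table holds 1 pooled value per group, and for the same reason no liver could be left out. All counts of features past 2-fold depended on how low values were treated. Without a pseudocount, 4.46% of features were higher and 5.05% lower with diet, 6.36% and 3.53% with Mafg LNA, and 2.93% and 2.93% with LincIRS2 LNA. With a pseudocount of 0.5 FPKM these were 0.352% and 0.352%, 0.353% and 0.353%, and 0% and 0.117%. Where both compared groups had 0.3 FPKM or more they were 0.919% and 0.613%, 1.40% and 0.620%, and 0.296% and 0.592%. With at least 1 FPKM in 1 or more of the 4 groups, 1.06% were higher and 0.796% lower with diet, 1.86% higher with Mafg LNA and 0.265% higher with LincIRS2 LNA, and the median was -0.0844 with Mafg LNA and 0.0342 with LincIRS2 LNA. Features opposite to their lncRNA gene alone gave 5.56% higher and 5.56% lower with diet, 5.56% higher and 3.17% lower with Mafg LNA, and medians of 0.0137 with diet and 0.148 with Mafg LNA. The other values under these settings, and all under 1 feature per gene, centring and own-strand features alone, stayed within the 95% interval of the value reported. Of the named features' differences, 13 that passed 2-fold did not with a pseudocount of 0.5 FPKM, and 12 that did not pass 2-fold did so without a pseudocount. With centring 1 of these 12 passed as well (Gm15856 for diet, -1.005), and 3 differences near 0 changed sign, those of an Airn feature for diet and of Gm16567 and an Hnf4aos feature for LincIRS2 LNA. No difference past 2-fold changed sign.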
